A study of Mus musculus with 32 samples.

Results

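Siglec-F high eosinophils of peripheral blood (EoH PB) were compared with Siglec-F high eosinophils of bone marrow (EoH BM), chosen by their sample titles, with 3 and 4 arrays of the 32 in the series. All 7 came from IL5T mice, which carry an IL-5 transgene under a CD2 promoter, so that their T cells make IL-5, on a BALB/c background at 7 to 12 weeks of age, with no added treatment. EoH PB cells were taken from retro-orbital blood and EoH BM cells from femurs and tibiae, and both were sorted as IL-5Rα positive, c-Kit low cells. Each array holds RNA pooled from mice, and the labels do not say how many or whether any mice gave both tissues. For each EoH BM sample the antibodies are labelled as for medium Siglec-F, against their title and cell type label, by which they were taken as EoH. Both groups thus carried the transgene, and no eosinophils without it were compared here.

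Eosinophils arise in marrow from progenitors that divide under IL-5, fill their granules with cationic proteins while still in the marrow, and then enter the blood as cells that no longer divide. Siglec-F is an inhibitory receptor of the eosinophil surface whose level rises on activated cells. In blood the cells pass on to the gut, lung and other tissues, where they release granule proteins, leukotrienes, cytokines and chemokines.

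RNA levels came from Illumina MouseWG-6 version 1.1 beadchips, with all 7 arrays in 1 run. Values are normalized log2 signals, on which background lies near the lowest values given, and a probe counted as detected on an array at a detection p under 0.05. Between 8720 and 9226 of the 24159 probes were detected per EoH PB array and between 8360 and 9224 per EoH BM array. A gene was said to rise or fall in EoH PB where the adjusted p of limma was under 0.05, with a spread estimated over all 32 arrays. These p-values measure the spread between pooled samples and not between single mice. Over all probes, arrays correlated at 0.982 to 0.989 within EoH PB, at 0.971 to 0.992 within EoH BM and at 0.964 to 0.977 between the groups.

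In all, 770 probes were higher (3.19%) and 638 lower (2.64%) in EoH PB. By gene, with 1 probe for each of 15187, 607 rose (4.00%) and 476 fell (3.13%), while of the 7716 genes detected on an EoH array, 7.40% rose and 6.00% fell. All EoH PB arrays lay above all EoH BM arrays at 7.77% of genes and below them at 5.59%. The median difference over all genes was 0.01 on the log2 scale. Of the genes that rose, 110 were detected on an EoH PB array and no EoH BM array, and of those that fell, 137 on an EoH BM array and no EoH PB array. Their fold is known only as a minimum, taken from the mean of the brighter group and the lowest detected signal, or the gene's own where higher, of each array of the dimmer group. Another 49 called genes were detected on no array and are given no fold. When only the 7 EoH arrays were fitted, 262 probes were higher and 180 lower, and with all arrays scaled to a common median 343 were higher and 424 lower, so that 44.7% of calls were higher in place of 54.7%.

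Eosinophil markers were present in both groups. Of the markers of eosinophils, Ccr3, the eotaxin receptor, Prg2, the major basic protein of the granule, and Cd300lf, an inhibitory receptor, were detected on all 7 arrays. Prg2 stood at 12.94, 14.23 and 14.43 in EoH PB and 14.63, 14.54, 14.15 and 14.63 in EoH BM. The summed signal of 9 eosinophil markers lay between 14100 and 30300 in EoH PB and between 33700 and 47800 in EoH BM. Of the 9, 4 fell (Epx, Prg3, Ccr3 and Alox15), where 3.13% of all genes fell. Siglecf itself stood at 6.18, 7.58 and 7.25 in EoH PB and 6.88, 6.34, 7.01 and 7.00 in EoH BM, and the groups overlapped (difference 0.19, adjusted p = 0.867). The value depended on single arrays. Without EoH PB replicate 1 the difference was 0.61 and passed the threshold (adjusted p = 0.0411), and without EoH PB replicate 2 it was -0.094. The probe of Il5ra, the IL-5 receptor alpha chain, was detected on 1 of the 7 arrays, so its level is not given. Il5, the product of the transgene, stood at 7.17, 8.69 and 8.02 in EoH PB and 7.85, 6.50, 6.43 and 7.34 in EoH BM with no call (adjusted p = 0.241).

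Markers of other blood cells differed between the sorts, and their part in the results was not tested. Over all genes, 4.00% rose and 3.13% fell. In such bulk samples, fewer cells of a type and less RNA per cell cannot be told apart. The 5 measured genes of neutrophil primary granules all fell, and their summed linear signal lay between 482 and 1720 in EoH PB and between 10100 and 19400 in EoH BM. Of 14 erythroid genes 6 fell (2 in the fit of the 7 EoH arrays alone), with sums between 1920 and 17800 in EoH PB and between 42700 and 57100 in EoH BM, where the highest EoH PB value was that of replicate 1. Of 16 monocyte and macrophage markers 8 rose, and their sums lay between 12400 and 19300 in EoH PB and between 6300 and 11500 in EoH BM. With the 7 EoH arrays alone 1 of these 8 passed, Cd14 (adjusted p = 0.0444), and 3 of the 16 did with the 10 eosinophil arrays. Of 14 T cell markers 4 rose and 1 fell (3 and none with the 7 arrays), with overlapping sums between 5160 and 6490 in EoH PB and between 4820 and 11600 in EoH BM. A linear sum is weighted to the brightest genes of its list, so an overlap does not show that the dimmer genes were alike. Sums of later neutrophil granule genes lay between 25000 and 51900 in EoH PB and between 51300 and 99200 in EoH BM (2 of 14 fell), those of B cell markers between 5130 and 7830 in EoH PB and between 1860 and 7220 in EoH BM (2 rose and 2 fell of 10, none and 2 with the 7 arrays), and those of mast cell and basophil genes between 916 and 1520 in EoH PB and between 1680 and 3520 in EoH BM (2 of 12 fell). Dendritic cell sums did not overlap, between 4740 and 5040 in EoH PB and between 3190 and 4210 in EoH BM, with 1 gene higher and 1 lower of 9. Sums of NK cell markers lay between 480 and 1150 in EoH PB and between 937 and 1850 in EoH BM (1 rose and 1 fell of 8), and those of plasma cell markers between 2030 and 2680 in EoH PB and between 834 and 2480 in EoH BM (none of 5 called, 1 at an unadjusted p under 0.05 in limma). Stem and progenitor sums were lower in every EoH PB array, between 1360 and 1810 in EoH PB and between 1860 and 2680 in EoH BM (3 of 13 fell), as were platelet sums, between 669 and 748 in EoH PB and between 844 and 1610 in EoH BM (1 of 9 fell), while stromal sums were higher, between 316 and 443 in EoH PB and between 288 and 309 in EoH BM (1 of 10 rose). Undetected genes add background to such sums. Of the 10 stromal genes, 9 were detected on no EoH PB array and 10 on no EoH BM array. For the 13 stem and progenitor genes these counts were 11 and 6, and for the 5 plasma cell markers 4 and 3. Of the 14 T cell markers 5 were detected on all EoH PB arrays and 2 on all EoH BM arrays. Cd3e, of the T cell receptor complex, was detected on 3 of 3 EoH PB arrays and 1 of 4 EoH BM arrays and rose, as did Cd2 and Thy1, while Cd4, Cd5 and Cd8a were detected on none of the 7 arrays. None of 4 genes that show the sex of the pooled mice was called, also at an unadjusted p under 0.05 in limma.

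**Figure D1:**
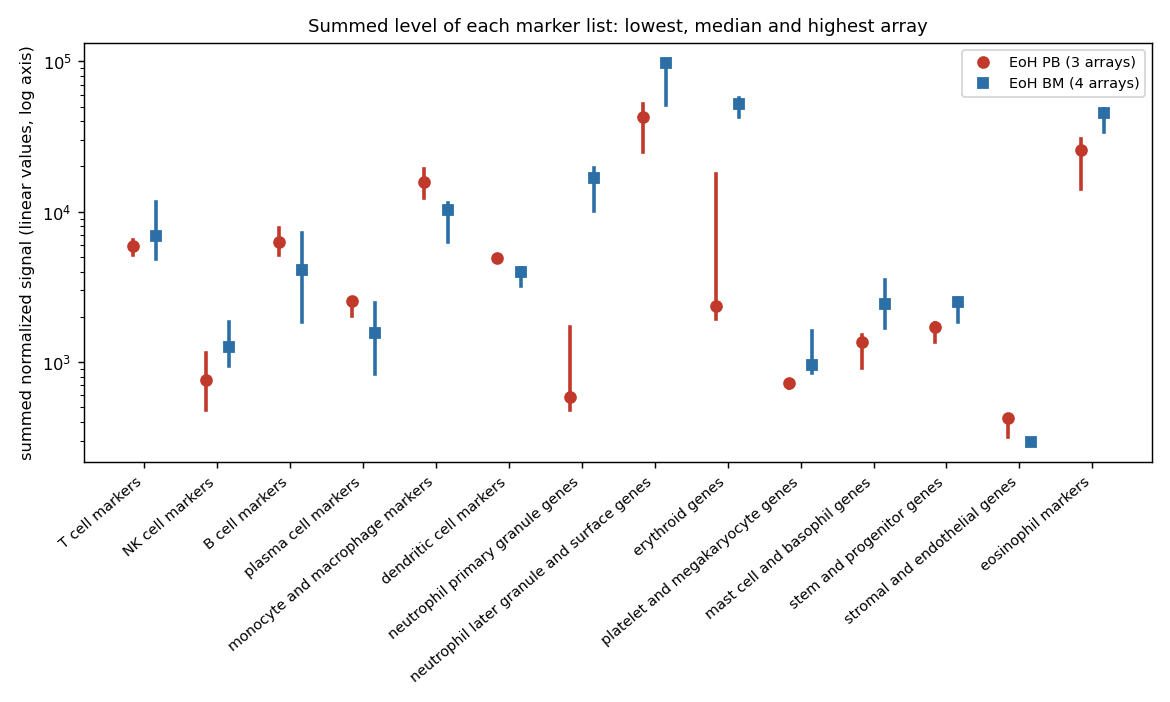
Summed linear signal of each marker list on a log axis, with EoH PB to the left of EoH BM in each pair; bars run from the lowest to the highest array and symbols mark the median. Primary granule and erythroid sums do not overlap, at 482 to 1720 in EoH PB and 10100 to 19400 in EoH BM for primary granules, whereas T cell sums do. Linear sums weigh the brightest genes most, and of the 14 T cell markers 4 rose and 1 fell.

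The genes that rose most in blood were at or near background in marrow. Tubb6, a beta tubulin, stood at 10.95, 10.76 and 10.65 in EoH PB, against 5.06, 5.37, 4.94 and 4.69 in EoH BM, and Saa3, an acute phase protein also made by macrophages, at 10.92, 10.86 and 11.17 in EoH PB, against 5.20, 5.32, 5.21 and 5.12 in EoH BM. No EoH BM array detected either gene, so Tubb6 was at least 32.0-fold and Saa3 at least 36.6-fold higher. Every EoH PB array was above every EoH BM array at these genes, which were chosen without overlap. Ednrb, an endothelin receptor, was at least 20.5-fold higher (adjusted p = 9.09e-16), with 9.43, 10.18 and 10.82 in EoH PB. Nupr1, a stress-induced nuclear protein, stood at 9.73, 9.81 and 10.25 in EoH PB, against 5.29, 5.52, 4.78 and 5.28 in EoH BM and was at least 17.6-fold higher (adjusted p = 2.37e-11). Ms4a8a, a membrane protein of the Ms4a family found on some macrophages, was at least 10.6-fold higher (adjusted p = 1.28e-13). Zbtb32, a zinc finger repressor known from lymphocytes, was detected in both tissues at 10.49, 11.18 and 10.47 in EoH PB, against 6.50, 6.20, 4.69 and 5.96 in EoH BM. The lowest EoH BM value was that of replicate 3, at this gene and at Pros1, which encodes the anticoagulant protein S and stood at 10.87, 10.64 and 10.81 in EoH PB, against 6.20, 6.49, 5.26 and 5.70 in EoH BM. Lgals3bp, a secreted galectin ligand, had a difference of 4.30 (standard error 0.24, adjusted p = 1.73e-12). Vsig4, a complement receptor of tissue macrophages, was at least 9.85-fold higher (adjusted p = 7.35e-11) and uneven in blood, at 7.77, 9.21 and 10.29. Cd2, the adhesion molecule of T and NK cells whose promoter drives the transgene, stood at 9.68, 10.04 and 9.56 in EoH PB, against 5.71, 5.11, 5.56 and 6.35 in EoH BM, a difference of 4.08 (standard error 0.18, adjusted p = 3.26e-14). Cd3e, a chain of the T cell receptor complex, rose by less, by 2.69 (adjusted p = 2.37e-11). Among these genes none lost its call when the 7 EoH arrays alone were fitted.

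**Figure D2:**
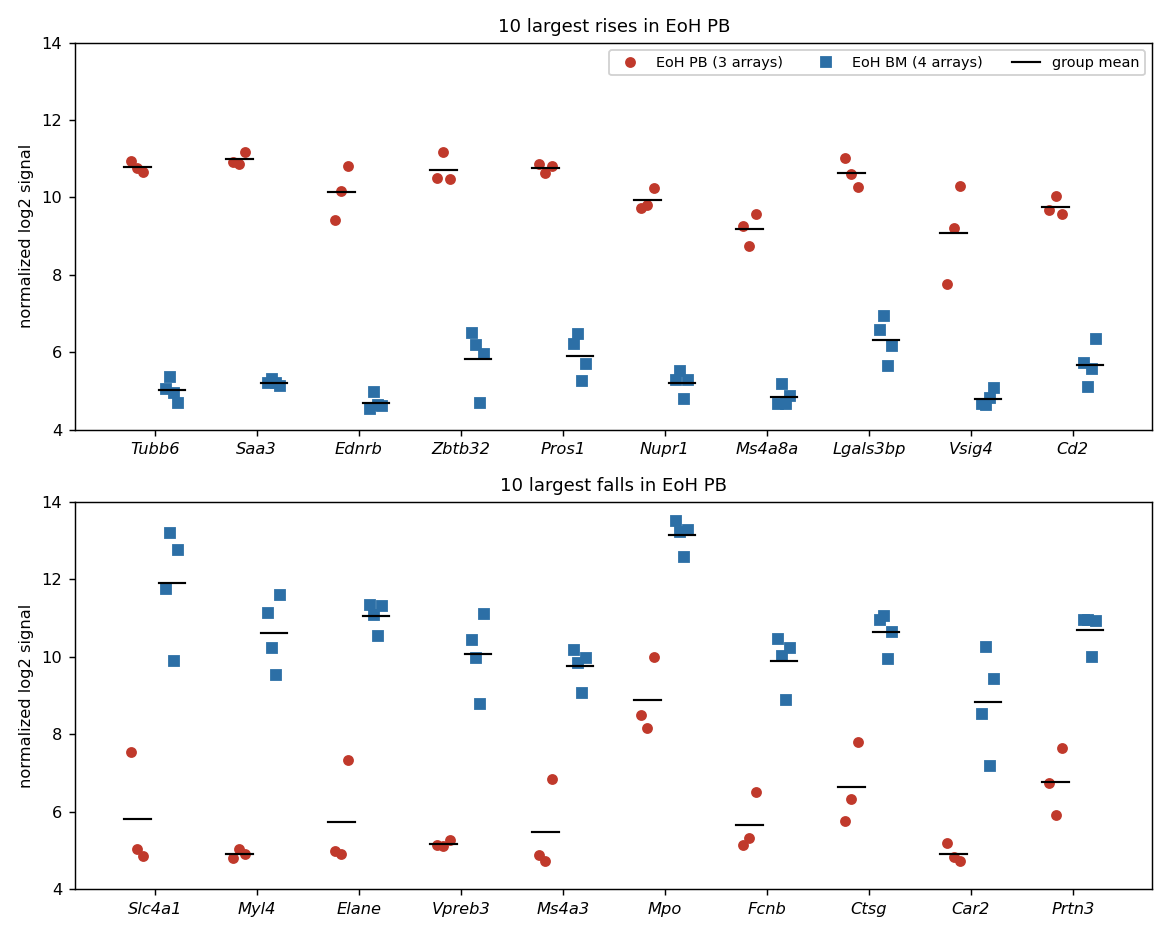
Normalized log2 signal of the 10 genes that rose most and the 10 that fell most in EoH PB; points are arrays (3 EoH PB, left, and 4 EoH BM, right, for each gene) and lines are group means. Genes were chosen without overlap between the groups, and EoH PB replicate 3 is the highest blood array for Elane at 7.33 and Mpo at 10.00.

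The 10 genes that fell most are known from other marrow lineages. Slc4a1, the anion exchanger of red cells, stood at 7.55, 5.02 and 4.86 in EoH PB, against 11.76, 13.21, 9.90 and 12.76 in EoH BM. The blood value of replicate 1 was above the other two. Myl4, a myosin light chain also found in red cell precursors, was at least 28.1-fold lower (adjusted p = 1.04e-10). Car2, a carbonic anhydrase of red cells, was at least 8.19-fold lower (adjusted p = 4.06e-05). Elane, neutrophil elastase, stood at 4.98, 4.91 and 7.33 in EoH PB, against 11.32, 11.07, 10.53 and 11.32 in EoH BM, and Mpo, myeloperoxidase, at 8.50, 8.16 and 10.00 in EoH PB, against 13.51, 13.21, 12.58 and 13.28 in EoH BM. In both, EoH PB replicate 3 was the highest of the blood arrays. Ctsg, Prtn3, Fcnb and Ms4a3, which are made by neutrophil precursors, had differences of -4.02, -3.93, -4.24 and -4.29. Among B lineage genes the direction split. Vpreb3 and Igll1, of precursor B cells, were at least 19.2-fold lower (adjusted p = 7.02e-10) and at least 5.46-fold lower (adjusted p = 2.41e-07). In contrast, Cd79a and Cd79b, the signalling chains that mature B cells keep, rose by 1.94 and 1.49. Kit, the stem cell factor receptor that was part of the sort, stood at 4.68, 4.79 and 4.90 in EoH PB, against 8.58, 8.01, 7.33 and 7.93 in EoH BM and was at least 4.46-fold lower (adjusted p = 2.09e-12), though 2 other Kit probes were detected on no array of either group. The call was lost in the 7-array fit by Cd79a and Cd79b (adjusted p = 0.241 and 0.231).

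**Figure D3:**
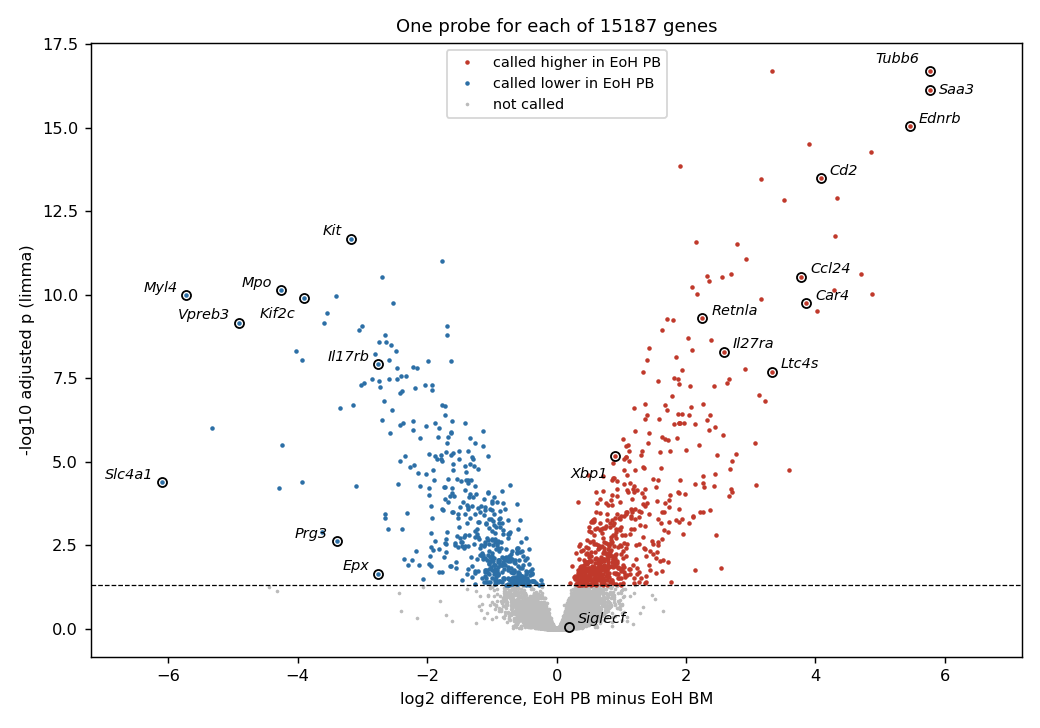
Difference between EoH PB and EoH BM on the log2 scale (x axis) against -log10 of limma's adjusted p (y axis), with 1 probe for each of 15187 genes and a dashed line at 0.05. Of these genes 607 lie above the line to the right and 476 to the left, and Siglecf lies near 0 at 0.19.

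Genes of mitosis and DNA replication fell in blood. Division begins with the loading of the MCM helicase and the supply of nucleotides, and ends with mitosis, run by the kinase CDK1, the Aurora and Polo kinases and spindle motors. Of 31 measured genes of mitosis 22 fell and none rose, where 3.13% of all genes fell, and the median difference was -1.73, or -1.54 with undetected genes at their bound. Of 31 genes of DNA replication 17 fell and none rose (median difference -0.76). Kif2c, a spindle motor, stood at 5.00, 5.53 and 5.54 in EoH PB, against 10.01, 9.47, 8.30 and 9.27 in EoH BM, and Cdk1 at 4.99, 5.28 and 6.18 in EoH PB, against 9.52, 9.55, 8.06 and 9.21 in EoH BM. All 4 EoH BM arrays were above the blood arrays at both, with replicate 3 the lowest of the 4. Birc5 (survivin), of the chromosomal passenger complex, fell to 6.92, 7.11 and 7.99 in EoH PB, against 10.77, 10.50, 9.15 and 10.33 in EoH BM, and Nusap1, a spindle protein, had a difference of -2.73 (standard error 0.27, adjusted p = 5.92e-08). Of the mitotic kinases, Aurka and Plk1 had differences of -2.64 and -2.33, and Aurkb was at least 3.91-fold lower (adjusted p = 5.68e-07). Foxm1, the factor that activates mitotic genes, was at least 2.07-fold lower (adjusted p = 6.01e-06). In replication, Tk1, thymidine kinase, was at least 4.66-fold lower (adjusted p = 3.68e-08), Mcm10, a replication factor, at least 2.92-fold lower (adjusted p = 8.42e-08), and Uhrf1, which maintains DNA methylation, had a difference of -2.22 (standard error 0.20, adjusted p = 1.43e-08). Mcm5, Mcm6 and Rrm1 had differences of -1.28, -1.84 and -1.22. The 2 probes of Tyms, thymidylate synthase, disagreed, as 1 was at least 5.51-fold lower (adjusted p = 2.92e-11) whereas its partner differed by 0.71 (adjusted p = 0.172). Other members had no call, as Plk4, the centriole kinase, differed by 0.23 (adjusted p = 0.961) and Pcna, the sliding clamp, by 0.05 (adjusted p = 0.995). No member of the 2 lists rose at an unadjusted p under 0.05 in limma either. When the 7 EoH arrays alone were fitted, 11 genes of mitosis and 4 of DNA replication fell. With the 7 EoH arrays fitted alone, Foxm1, Mcm5, Mcm6 and Rrm1 did not pass the threshold (adjusted p = 0.0855, 0.0879, 0.0868 and 0.0784). The counts lay between 21 and 22 and between 14 and 21 when any 1 of the 7 arrays was left out, and were 18 and 11 without EoH PB replicates 2 and 3, whose deposited names end in b and not in a. The sums of primary granule and erythroid genes also were lower in EoH PB, and their part in these falls was not tested.

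**Figure D4:**
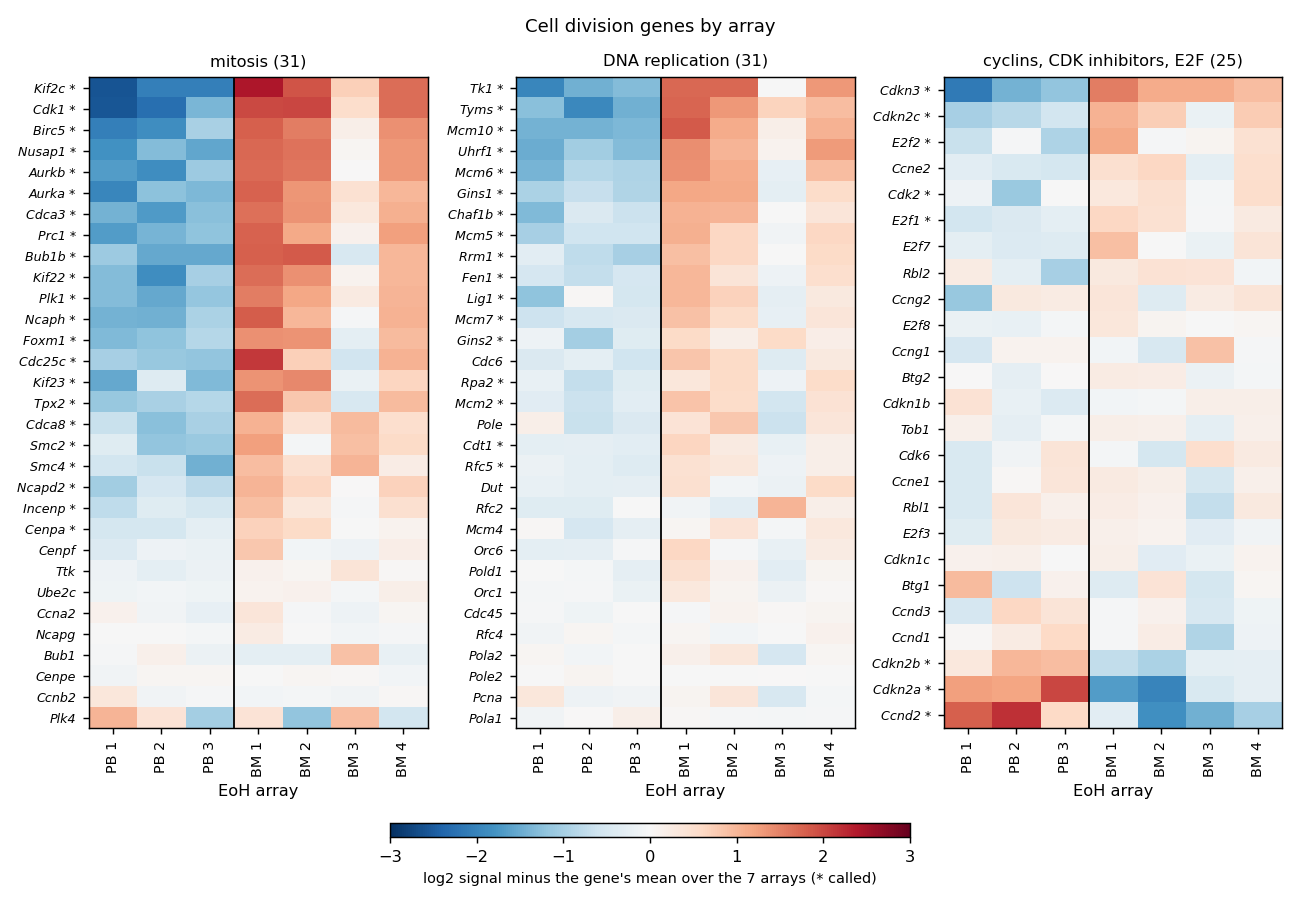
Log2 signal of each measured gene of 3 cell division lists on each array, less the gene's mean over the 7 arrays, with the 3 EoH PB arrays left of the 4 EoH BM arrays; stars mark called genes. The 22 called genes of mitosis and 17 of DNA replication are lower in blood on average, with EoH BM replicate 3 the palest marrow array in most rows, and Cdkn2a, Cdkn2b and Ccnd2 run the other way.

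Regulators of the G1 phase ran both ways. Of 25 measured cyclins, CDK inhibitors and E2F genes, 3 rose and 5 fell, where 4.00% and 3.13% of all genes did. Cdkn2a, whose products p16INK4a and p19ARF restrain CDK4 and stabilise p53, stood at 11.47, 11.41 and 12.23 in EoH PB, against 8.57, 8.26, 9.78 and 9.96 in EoH BM, a difference of 2.57 (standard error 0.31, adjusted p = 1.62e-06). Its 2 other probes also rose, by 1.89 and 2.24. Cdkn2b, the neighbouring p15INK4b gene, rose by 1.31 (adjusted p = 6.04e-06), and Ccnd2, cyclin D2, stood at 9.80, 10.20 and 8.59 in EoH PB, against 7.68, 6.16, 6.57 and 7.01 in EoH BM (difference 2.67). In contrast, Cdkn2c, the p18INK4c gene, fell to 7.83, 8.00 and 8.27 in EoH PB, against 9.87, 9.57, 8.64 and 9.59 in EoH BM, and Cdkn3, a phosphatase acting on CDK1 and CDK2, had a difference of -2.74. E2f1 and E2f2, activators of S phase genes, fell by 0.74 and 0.96 on the log2 scale, and the call of E2f2 was lost without each of 3 of the 7 arrays in turn (adjusted p up to 0.106). In the fit of the 7 EoH arrays alone, Cdkn2a, Cdkn2b, Ccnd2, Cdkn2c, E2f1 and E2f2 did not pass the threshold (adjusted p = 0.0583, 0.0554, 0.0536, 0.0893, 0.0932 and 0.322), and with all arrays scaled to a common median E2f2 had no call (adjusted p = 0.392).

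Promoters of genes that move together through the cell cycle are known to hold the cell cycle homology region, TTTGAA, and the CCAAT box in mitotic genes, and E2F sites such as TTTCGCGC in replication genes. These were looked for on both strands of RefSeq promoter windows of 300 bases, 250 before and 50 after each start, where a gene with several windows counted once. TTTGAA was found for 13 of 16 of the mitosis genes that fell and 5 of 8 of those not called, against 17.1% of all measured genes with a promoter, and CCAAT for 12 of 16 and 7 of 8, against 41.9%. Of the replication genes that fell, 2 of 15 held TTTGAA, and of those not called 1 of 11. TTTCGCGC was found for 5 of 15 of those that fell and 1 of 11 of those not called, against 0.6% of all, and TTTGGCGC for 3 of 15 and 2 of 11, against 0.88%. The other E2F letters were no more frequent in replication genes that fell than in those not called, though above all measured genes in both. TTCCCGCC was found for 2 of 15 and 2 of 11 (3.68% of all). TTTCCCGC was found for 1 of 15 and 2 of 11 (1.83%), and TTTGGCGG for 1 of 15 and 1 of 11 (0.847%). Over all genes that fell, these 3 were held by 6.43%, 3.34% and 2.31%. Over all 389 genes with a promoter that fell, 24.2% held TTTGAA, and of the 495 that rose, 14.1%. A match is a description of these letters and not of a bound site. The window of Cdk1 is shown for both motifs of mitotic genes and that of Uhrf1 for the E2F letters, with the matches in capitals on a 5′ to 3′ run of the gene's strand.

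In Cdk1, matches to TTTGAA and to ATTGG, the reverse complement of CCAAT, are in capitals, and in Uhrf1 the match to TTTCGCGC.
Cdk1 promoter, GRCm38.p6, chr10:69352863-69353162, minus strand: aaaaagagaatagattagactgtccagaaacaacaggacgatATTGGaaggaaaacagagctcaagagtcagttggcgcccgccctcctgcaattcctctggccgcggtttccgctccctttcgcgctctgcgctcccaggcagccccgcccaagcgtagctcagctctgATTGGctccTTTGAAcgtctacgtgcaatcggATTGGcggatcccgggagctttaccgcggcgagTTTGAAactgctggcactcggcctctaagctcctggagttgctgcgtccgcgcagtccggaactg
Uhrf1 promoter, GRCm38.p6, chr17:56304063-56304362, plus strand: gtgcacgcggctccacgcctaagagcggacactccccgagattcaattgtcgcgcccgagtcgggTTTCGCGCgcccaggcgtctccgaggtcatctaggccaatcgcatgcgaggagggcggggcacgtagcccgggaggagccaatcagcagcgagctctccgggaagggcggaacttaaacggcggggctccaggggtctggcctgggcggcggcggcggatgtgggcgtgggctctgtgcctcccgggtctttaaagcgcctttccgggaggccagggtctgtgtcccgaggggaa

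In Cdk1, TTTGAA began 71 and 15 bases before the start and ATTGG 208, 80 and 48 bases before it. In Uhrf1, TTTCGCGC began 185 bases before the start. Left in lower case, the Cdk1 window also holds TTTCGCGC and the Uhrf1 window CCAAT. TTTCGCGC was found for 1 of 16 of the mitosis genes that fell and 0 of 8 of those not called. CCAAT was found for 8 of 15 of the replication genes that fell and 5 of 11 of those not called.

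None of the granule proteins and receptors that define eosinophils rose. Of 5 granule proteins measured 2 fell, where 3.13% of all genes fell. Prg3, a homologue of major basic protein, stood at 8.25, 9.70 and 10.54 in EoH PB, against 13.35, 13.10, 12.45 and 12.68 in EoH BM, a difference of -3.40 (standard error 0.70, adjusted p = 0.00241), and Epx, eosinophil peroxidase, at 8.69, 9.51 and 10.30 in EoH PB, against 12.60, 12.59, 11.79 and 12.04 in EoH BM, a difference of -2.76 (standard error 0.74, adjusted p = 0.0227). The blood arrays were all below the marrow arrays at both genes, and EoH PB replicate 1 was the lowest. Prg2 differed by -0.62 (adjusted p = 0.884), and Ear14 and Rnase2b, of the eosinophil ribonuclease family with near-identical copies, were detected on no array. The call of Epx was lost without EoH PB replicate 1 or 2 or EoH BM replicate 1 or 2 (adjusted p = 0.0536 to 0.115). Ccr3 fell to 11.07, 11.13 and 11.08 in EoH PB, against 11.41, 11.99, 11.68 and 11.89 in EoH BM (difference -0.65, adjusted p = 0.0378), and was the sole member called of 13 receptor genes and of 17 genes of chemoattractant receptors and egress. That call held only without EoH BM replicate 1 among the 7 arrays left out in turn, with adjusted p = 0.0543 to 0.108 otherwise. P2ry14, a receptor for UDP-sugars, averaged 14.12 in EoH PB and 14.10 in EoH BM, Ltb4r1, the leukotriene B4 receptor, 13.50 in EoH PB and 13.52 in EoH BM, and Adgre1, which encodes F4/80, 11.87 in EoH PB and 11.79 in EoH BM, none with a call. Klf2, a factor of lymphocyte egress, averaged 13.45 ± 0.29 in EoH PB (SD, n = 3) and 11.81 ± 0.14 in EoH BM (n = 4), and its difference of 1.64 did not pass (adjusted p = 0.288), although the groups did not overlap, whereas it passed when the 7 EoH arrays alone were fitted (adjusted p = 0.00606). Alox15, a lipoxygenase of mature eosinophils, had a difference of -0.90 (standard error 0.19, adjusted p = 0.00375). The call was lost in the 7-array fit by Ccr3 and Alox15 (adjusted p = 0.0921 and 0.0737), and with all arrays scaled to a common median Ccr3 had no call (adjusted p = 0.155).

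A few genes of the leukotriene and prostaglandin pathways rose in blood. Leukotrienes are made from arachidonic acid by 5-lipoxygenase, and leukotriene C4 synthase adds glutathione to make the cysteinyl leukotrienes that eosinophils release. Of 26 measured genes 4 rose and 1, Alox15, fell, where 4.00% of all genes rose and 3.13% fell. Ltc4s, that synthase, stood at 11.15, 10.33 and 10.98 in EoH PB, against 6.97, 8.09, 7.36 and 7.55 in EoH BM, a difference of 3.33 (standard error 0.31, adjusted p = 2.03e-08). The upstream Alox5 and its partner Alox5ap were high in both groups with no call, at 12.40 in EoH PB and 12.86 in EoH BM for Alox5 and 14.54 in EoH PB and 14.43 in EoH BM for Alox5ap. Ptgis, prostacyclin synthase, was detected on all 3 EoH PB arrays and no EoH BM array, at 7.33, 8.08 and 8.28 in EoH PB, against 4.80, 4.64, 4.68 and 4.80 in EoH BM, and was at least 4.30-fold higher (adjusted p = 3.39e-14). Dpep2, a dipeptidase that can convert leukotriene D4, was at least 2.26-fold higher (adjusted p = 2.62e-05) but varied in blood from 5.62 to 8.17. Ptger2, a prostaglandin E2 receptor, had a difference of 1.35 (adjusted p = 0.00368). Tbxas1, thromboxane synthase, averaged 11.77 in EoH PB and 11.11 in EoH BM (adjusted p = 0.0707). With the 7 EoH arrays fitted alone, Dpep2 and Ptger2 did not pass the threshold (adjusted p = 0.125 and 0.0921), and with all arrays scaled to a common median Ptger2 had no call (adjusted p = 0.155).

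Of 33 measured cytokines and chemokines 4 rose and 1 fell, where 4.00% and 3.13% of all genes did. Ccl24, eotaxin 2, a ligand of CCR3, stood at 11.13, 11.04 and 11.32 in EoH PB, against 6.90, 7.71, 7.28 and 7.63 in EoH BM, a difference of 3.79 (standard error 0.24, adjusted p = 2.95e-11), and every blood array was above every marrow array by more than 3 on the log2 scale. Ccl11, eotaxin 1, differed by -0.01 and averaged 4.67 in EoH PB and 4.69 in EoH BM, close to background. Ccl5 (RANTES), which also binds CCR3, stood at 6.56, 8.55 and 7.32 in EoH PB, against 5.08, 5.90, 4.72 and 5.36 in EoH BM, a difference of 2.21 (standard error 0.38, adjusted p = 3.15e-04). Il18 was at least 1.52-fold higher (adjusted p = 1.87e-06), and Il27, a subunit of interleukin 27, rose by 1.33 (adjusted p = 1.40e-05). Il12a, a subunit of interleukin 12 and 35, stood at 4.99, 5.06 and 4.85 in EoH PB, against 7.51, 7.75, 6.21 and 8.20 in EoH BM and was at least 3.05-fold lower (adjusted p = 4.56e-05). Ccl3, Ccl4 and Csf1 were well detected with differences of -0.04, -0.07 and 0.02. In the fit of the 7 EoH arrays alone, Ccl5, Il27 and Il12a did not pass the threshold (adjusted p = 0.101, 0.0873 and 0.0529).

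Among 30 cytokine receptors, 4 rose and 4 fell, where 4.00% and 3.13% of all genes did. Il27ra, the receptor of interleukin 27, stood at 8.30, 8.13 and 8.15 in EoH PB, against 5.06, 5.48, 6.39 and 5.51 in EoH BM, a difference of 2.58 (standard error 0.22, adjusted p = 5.14e-09). Il6ra and Il4ra, which bind interleukin 6 and interleukin 4, rose by 1.74 and 1.67 (adjusted p = 6.43e-04 and 1.68e-04), and Il10ra by 0.89, a call lost without each of 4 of the 7 arrays in turn (adjusted p up to 0.117). Il17rb, the receptor of interleukin 25, stood at 4.64, 4.78 and 4.79 in EoH PB, against 8.35, 7.67, 6.68 and 7.25 in EoH BM and was at least 3.20-fold lower (adjusted p = 1.20e-08). Il17ra, its partner chain, had a difference of -0.85 (adjusted p = 6.96e-04). Il18rap, a chain of the interleukin 18 receptor, fell to 5.63, 6.23 and 5.80 in EoH PB, against 8.09, 6.85, 7.75 and 8.00 in EoH BM, whereas the other chain, Il18r1, differed by 0.77 with no call. Il7r, which lymphoid cells also express, had a difference of -1.94, a call lost without EoH PB replicate 3 or EoH BM replicate 1 or 4 (adjusted p = 0.0549 to 0.0838). The call was lost in the 7-array fit by Il6ra, Il4ra, Il10ra, Il18rap and Il7r (adjusted p = 0.0908, 0.0536, 0.0878, 0.0522 and 0.203), and with all arrays scaled to a common median Il10ra had no call (adjusted p = 0.0740).

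Of 20 inhibitory receptors and checkpoint ligands 1 rose and 3 fell, where 4.00% and 3.13% of all genes did. Cd274, which encodes the checkpoint ligand PD-L1, stood at 11.06, 11.66 and 11.67 in EoH PB, against 10.34, 10.13, 10.29 and 10.47 in EoH BM, a difference of 1.16 (standard error 0.20, adjusted p = 2.64e-04). Milr1, the Allergin-1 gene, fell to 7.55, 8.22 and 8.19 in EoH PB, against 9.39, 8.99, 9.98 and 8.81 in EoH BM, and Siglece, a CD33-related inhibitory lectin, stood at 5.39, 6.12 and 6.08 in EoH PB, against 7.14, 6.90, 7.26 and 6.60 in EoH BM. Cd72, best known from B cells, had a difference of -2.65 (standard error 0.48, adjusted p = 4.90e-04) with a wide marrow range, 7.69 to 10.66. Of 22 genes of adhesion 3 rose and 2 fell. Itgad, the integrin alpha D chain, was at least 1.44-fold lower (adjusted p = 4.84e-06). Pecam1 (CD31) fell to 8.17, 8.52 and 8.64 in EoH PB, against 9.52, 9.30, 9.16 and 9.80 in EoH BM. Its second detected probe had no call in limma (difference -0.80, adjusted p = 0.114). Itgae, the CD103 chain that binds E-cadherin, was at least 1.44-fold higher (adjusted p = 0.00189), and Itga5, the fibronectin receptor chain, was higher (adjusted p = 0.00289) with detection on 2 of 3 blood arrays and no marrow array. The subunits that carry eosinophils across vessels, Itga4, Itgam and Itgb7, had no call, with differences of 0.17, -0.15 and 0.55. With the 7 EoH arrays fitted alone, Milr1, Siglece, Cd72, Itgad, Pecam1, Itgae and Itga5 did not pass the threshold (adjusted p = 0.125, 0.0863, 0.146, 0.0628, 0.0548, 0.191 and 0.0932), and with all arrays scaled to a common median Itgae and Itga5 had no call (adjusted p = 0.136 and 0.246).

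Of 11 measured MHC class II and costimulation genes, which display peptides to T cells and act beside them, 8 rose in blood, where 4.00% of all genes rose, and none fell. H2-Eb1, a beta chain, stood at 11.38, 11.83 and 11.29 in EoH PB, against 9.23, 8.81, 7.80 and 9.38 in EoH BM, and Ciita, the master activator of these genes, at 7.57, 8.49 and 7.72 in EoH PB, against 6.18, 5.65, 4.90 and 6.46 in EoH BM. EoH BM replicate 3 was the lowest array at both, as it was at H2-DMb1, of the peptide editor, which stood at 8.57, 9.45 and 9.09 in EoH PB, against 6.99, 7.05, 5.05 and 7.55 in EoH BM. Cd74, the invariant chain, had a difference of 2.55 (standard error 0.65, adjusted p = 0.0154), a call lost without EoH PB replicate 2 or EoH BM replicate 3 (adjusted p = 0.0604 to 0.0858), and H2-Aa was called though no array detected it. Cd86, a costimulator, differed by 0.12 and was high in both groups at 10.30 in EoH PB and 10.18 in EoH BM. Cd79a, Cd79b, Cd14 and Ly86, which B cells or monocytes express, moved with them, Cd14 at 9.62, 9.07 and 9.44 in EoH PB, against 7.06, 7.58, 5.54 and 6.50 in EoH BM and Ly86 at 9.74, 10.02 and 9.65 in EoH PB, against 7.97, 8.43, 6.06 and 7.72 in EoH BM, and the sums of the monocyte list, of which 8 of 16 genes rose, did not overlap. Of 10 B cell markers 2 rose, while 2, Vpreb3 and Igll1, fell, and the B cell sums overlapped. In the fit of the 7 EoH arrays alone, Cd79a, Cd79b and Ly86 had no call in limma (adjusted p = 0.241, 0.231 and 0.123). The part of these markers in the rise was not tested. H2-Ab1, H2-DMa and Cd40 rose by 2.11, 1.85 and 1.66. When the 7 EoH arrays alone were fitted, 1 of the 11 genes rose, H2-Eb1 (adjusted p = 0.0244), whereas the count lay between 6 and 8 with any 1 array left out of the whole fit. Without EoH PB replicates 2 and 3, whose deposited names end in b and not in a, 3 rose and 1 fell. In contrast, of 15 genes of MHC class I and peptide loading none was called by limma (2 at an unadjusted p under 0.05), with a median difference of 0.08 and differences from -0.70 to 0.40.

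The promoter of H2-Eb1 is shown for the Y box, CTGATTGG, one of the elements through which CIITA acts and which holds the reverse complement of CCAAT; it was found for 2 of 4 of the genes of the list that rose and had a promoter, 1 of 2 of those not called and 5.58% of all measured genes, whereas the X box letters CCTAGCAAC were found for 0 of 4 and 1 of 2 (1.04% of all). The match to the Y box, in capitals, begins 62 bases before the start. Only exact letters were searched. Before the Y box this window holds ACTAGCAAC, which differs from the X box letters in its first base.
H2-Eb1 promoter, GRCm38.p6, chr17:34305617-34305916, plus strand: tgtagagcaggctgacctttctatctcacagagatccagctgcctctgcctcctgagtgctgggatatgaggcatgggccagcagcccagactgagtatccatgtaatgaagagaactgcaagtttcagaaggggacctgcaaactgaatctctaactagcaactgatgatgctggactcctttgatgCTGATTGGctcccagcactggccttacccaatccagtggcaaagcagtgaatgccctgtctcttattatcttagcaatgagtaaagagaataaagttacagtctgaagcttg

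Of 22 pattern recognition genes 4 rose, with Tlr7, the sensor of single-stranded RNA, at least 2.07-fold higher (adjusted p = 1.01e-04) and Clec4d, a C-type lectin of myeloid cells, at 6.98, 8.19 and 7.87 in EoH PB, against 5.45, 5.94, 5.32 and 5.46 in EoH BM. Tlr4 and Nod2 differed by 0.22 and 0.45 with no call. Of 17 NF-kappaB genes 3 rose, where 4.00% of all genes rose and 3.13% fell. Traf1, an adaptor of TNF receptors and target of NF-kappaB, stood at 8.05, 7.64 and 7.95 in EoH PB, against 5.83, 5.27, 6.03 and 5.98 in EoH BM, a difference of 2.10 (standard error 0.14, adjusted p = 6.03e-11), with a second probe at 1.66, and Bcl3, a nuclear IκB protein, had a difference of 1.27 (standard error 0.27, adjusted p = 0.00296). Of 24 immediate early genes 1 rose, Batf3, a factor of dendritic cells, at 10.23, 9.34 and 9.83 in EoH PB, against 8.44, 8.33, 9.69 and 8.27 in EoH BM, a call lost without EoH PB replicate 1 or 3 or EoH BM replicate 1, 2 or 4 (adjusted p = 0.0504 to 0.109). Fos, Egr1 and Jun had no call, with differences of -0.07, -0.55 and 0.15. Of 33 transcription factors of blood lineages 5 rose and none fell. Xbp1, a factor that eosinophil development needs, stood at 14.18, 14.04 and 14.24 in EoH PB, against 13.19, 13.33, 13.18 and 13.31 in EoH BM, a difference of 0.90 (standard error 0.12, adjusted p = 6.71e-06), and Cebpb had one of 0.76, a call lost without EoH PB replicate 1 or EoH BM replicate 3 (adjusted p = 0.0726 to 0.0936). Gata1, Spi1 and Cebpe, which specify the lineage, had differences of 0.26, 0.04 and -0.09 with no call. Of 19 interferon-stimulated genes 2 rose and 1 fell, with the guanylate binding protein Gbp3 at 9.51, 9.94 and 9.68 in EoH PB, against 7.43, 7.43, 7.00 and 7.46 in EoH BM. Rsad2 (viperin) ran the other way, at 6.89, 8.61 and 7.33 in EoH PB, against 9.10, 11.31, 7.94 and 11.31 in EoH BM, and its call was lost without EoH PB replicate 1 or 3 or EoH BM replicate 2 or 4 (adjusted p = 0.0547 to 0.0804). Hic1, a repressor, stood at 8.61, 7.93 and 8.49 in EoH PB, against 6.92, 8.59, 6.38 and 7.28 in EoH BM, a call lost without EoH PB replicate 1 or 3 or EoH BM replicate 1, 3 or 4 (adjusted p = 0.0518 to 0.111). In the fit of the 7 EoH arrays alone, Tlr7, Cebpb, Batf3, Hic1 and Rsad2 did not pass the threshold (adjusted p = 0.0955, 0.139, 0.328, 0.540 and 0.423), and with all arrays scaled to a common median Cebpb and Hic1 had no call (adjusted p = 0.255 and 0.129).

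Of 26 genes of survival and death, 5 rose and 2 fell, where 4.00% and 3.13% of all genes did. Pmaip1 (NOXA), a BH3-only protein that drives apoptosis, was at least 1.56-fold higher (adjusted p = 4.01e-09), and Bcl2l2 (BCL-W), which opposes it, stood at 9.03, 9.03 and 9.12 in EoH PB, against 8.59, 8.21, 7.96 and 8.46 in EoH BM, though its second detected probe did not pass (difference 0.66, adjusted p = 0.157). Mcl1, on which granulocytes rely, averaged 13.44 in EoH PB and 13.37 in EoH BM and Bcl2l1 6.76 in EoH PB and 7.37 in EoH BM, without a call. Casp1, the inflammatory caspase, stood at 11.41, 11.90 and 11.70 in EoH PB, against 11.15, 11.15, 10.85 and 11.15 in EoH BM. Of 15 genes of STAT5 signalling and feedback 1 fell, Stat6, by 0.91 on the log2 scale. Of 21 cytoskeletal genes 2 rose and 3 fell, with the tubulin Tubb2b at 3.09 (adjusted p = 4.88e-05; its second detected probe at 0.76, adjusted p = 0.0551) and Lcp1 (L-plastin) down to 10.53, 10.26 and 10.81 in EoH PB, against 11.33, 11.52, 11.41 and 11.48 in EoH BM. Of 13 chitinase-like, resistin-like and acute phase genes 3 rose (Saa3, Pros1 and Retnla) and 2 fell. Retnla, a resistin-like protein of type 2 immunity, was among the brightest probes and stood at 14.04, 14.06 and 13.80 in EoH PB, against 11.34, 11.88, 11.84 and 11.78 in EoH BM, a difference of 2.26 (standard error 0.17, adjusted p = 5.03e-10). Of 20 S100, annexin and lectin genes 2 rose and 1 fell. S100a4, a calcium-binding protein of motile cells, stood at 6.99, 7.98 and 7.63 in EoH PB, against 5.11, 5.81, 4.76 and 4.74 in EoH BM, and Hspb1, the sole call among 10 heat shock genes, at 7.45, 8.53 and 8.23 in EoH PB, against 5.95, 5.84, 5.25 and 5.51 in EoH BM. Anxa5 fell to 11.07, 11.82 and 11.80 in EoH PB, against 12.40, 12.29, 12.09 and 12.47 in EoH BM. The call of Stat6 was lost without EoH PB replicate 2 or 3 or EoH BM replicate 2 or 3 (adjusted p = 0.0568 to 0.209). The call was lost in the 7-array fit by Bcl2l2, Casp1, Stat6, Tubb2b and Anxa5 (adjusted p = 0.0770, 0.112, 0.323, 0.0658 and 0.178), and with all arrays scaled to a common median Casp1 and Stat6 had no call (adjusted p = 0.0801 and 0.196).

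None of 35 genes of oxidative phosphorylation and none of 21 cytosolic ribosomal proteins was called, with median differences of 0.02 and 0.06. At an unadjusted p under 0.05 in limma, 2 and 1 of them passed. Of 24 genes of hypoxia and glycolysis 1 rose and 1 fell. Car4, a carbonic anhydrase anchored at the cell surface, stood at 11.72, 12.04 and 12.60 in EoH PB, against 7.62, 7.50, 8.82 and 9.12 in EoH BM, a difference of 3.86 (standard error 0.28, adjusted p = 1.78e-10), while Slc2a1 and Slc2a3, glucose transporters, differed by 0.37 and 0.24. In sterol and fatty acid synthesis 3 of 23 genes rose and 4 fell, where 4.00% and 3.13% of all genes did, and 2 rose and none fell in the 7-array fit. Scd1, stearoyl-CoA desaturase, stood at 10.92, 11.21 and 10.51 in EoH PB, against 8.09, 8.07, 6.15 and 8.32 in EoH BM, a difference of 3.23 (standard error 0.33, adjusted p = 1.56e-07), with EoH BM replicate 3 far below the other marrow arrays. Fdps, of the mevalonate pathway, fell to 11.04, 10.80 and 11.01 in EoH PB, against 12.63, 11.82, 11.65 and 12.11 in EoH BM, and Fads1, a fatty acid desaturase, had a difference of -0.85 (standard error 0.13, adjusted p = 7.54e-05). Of 21 genes of the unfolded protein response 2 rose and 3 fell, of 28 lysosomal genes 1 and 1, and of 16 genes of the NADPH oxidase and redox defence 1 rose. Sdf2l1, Creld2 and Fkbp11, folding factors of the endoplasmic reticulum, had differences of -0.82, -0.69 and -0.87, whose calls were lost without EoH PB replicate 2 or EoH BM replicate 1 (adjusted p = 0.0529 to 0.167), without EoH PB replicate 1 (adjusted p = 0.0688) and without EoH PB replicate 1, 2 or 3 or EoH BM replicate 1 or 3 (adjusted p = 0.0557 to 0.139), while Xbp1 of the same list rose. Of 21 genes of the clock and glucocorticoid response 1 rose and 1 fell. Clock itself stood at 8.75, 9.22 and 9.14 in EoH PB, against 8.39, 8.28, 8.12 and 8.23 in EoH BM. A second detected probe of Clock had no call in limma (difference 0.42, adjusted p = 0.287). Fkbp5, a target of the glucocorticoid receptor, fell to 7.16, 7.18 and 7.11 in EoH PB, against 8.27, 8.78, 8.01 and 8.08 in EoH BM (difference -1.14, adjusted p = 3.33e-06). With the 7 EoH arrays fitted alone, Fdps, Fads1, Sdf2l1, Creld2 and Fkbp11 did not pass the threshold (adjusted p = 0.0853, 0.101, 0.265, 0.293 and 0.420), and with all arrays scaled to a common median Fkbp11 and Clock had no call (adjusted p = 0.0538 and 0.0585).

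**Figure D5:**
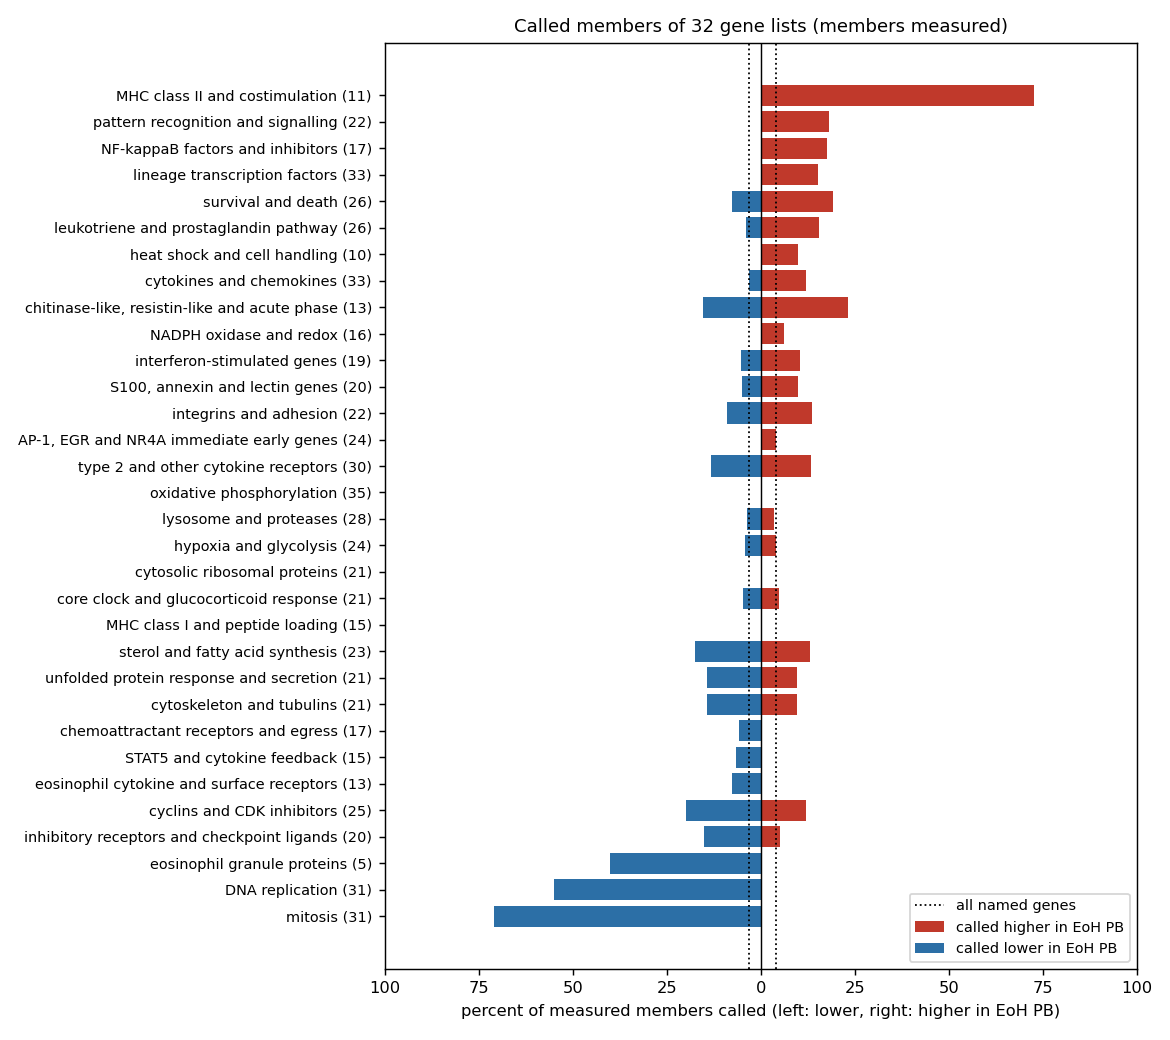
Percent of the measured members of each of 32 gene lists called lower (left of 0) or higher (right of 0) in EoH PB, with the number measured in brackets and dotted lines at 4.00% and 3.13%, the shares over all genes. Drawn from the fit of all 32 arrays, 8 of 11 MHC class II and costimulation genes were higher and 22 of 31 of mitosis lower, against 1 and 11 in the fit of the 7 EoH arrays alone.

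Genes of other lineages outside the leading ones are given by array, since they enter the marker sums. Thy1, of T cells, stood at 7.36, 7.83 and 6.93 in EoH PB, against 6.46, 5.49, 4.84 and 6.11 in EoH BM, with its call lost without EoH PB replicate 2 (adjusted p = 0.0741). The complement gene C1qa, of macrophages, stood at 8.54, 8.65 and 9.95 in EoH PB, against 7.33, 7.39, 6.56 and 7.33 in EoH BM, and C1qb and C1qc had differences of 1.74 and 1.74. Lyz1, a lysozyme gene of the monocyte and macrophage list with a near-identical copy, stood at 7.66, 6.60 and 8.02 in EoH PB, against 4.87, 6.54, 4.84 and 4.99 in EoH BM. EoH BM replicate 3 was the lowest array at C1qa and EoH BM replicate 2 the highest marrow array at Lyz1. Siglech, of plasmacytoid dendritic cells, was at least 1.94-fold lower (adjusted p = 0.00196). Klre1, of NK cells, was at least 1.25-fold higher on average (adjusted p = 0.00830), a call lost without EoH PB replicate 2 (adjusted p = 0.0750). It stood at 4.96, 7.39 and 5.98 in EoH PB, was detected on 2 of these arrays, and overlapped EoH BM. Klf1, which drives red cell differentiation, was at least 4.35-fold lower (adjusted p = 3.52e-04). The precursor genes Sox4 and Egfl7 were at least 2.35-fold lower (adjusted p = 0.00802) and at least 2.19-fold lower (adjusted p = 5.58e-05). A second detected probe of Egfl7 had no call in limma (difference -0.32, adjusted p = 0.789). Hdc, which makes histamine, stood at 6.49, 7.82 and 8.04 in EoH PB, against 9.79, 8.60, 8.21 and 8.71 in EoH BM, a call lost without EoH PB replicate 1 or EoH BM replicate 1 (adjusted p = 0.0972 to 0.204). Cd177, of neutrophils, stood at 5.22, 6.13 and 6.72 in EoH PB, against 9.04, 9.18, 6.12 and 8.67 in EoH BM, a call lost without EoH PB replicate 1 (adjusted p = 0.0688). In the fit of the 7 EoH arrays alone, Thy1, C1qa, C1qb, C1qc, Lyz1, Siglech, Klre1, Klf1, Sox4, Egfl7, Hdc and Cd177 did not pass the threshold (adjusted p = 0.144, 0.0806, 0.157, 0.176, 0.139, 0.153, 0.451, 0.140, 0.210, 0.0510, 0.335 and 0.338), and with all arrays scaled to a common median Thy1 and Klre1 had no call (adjusted p = 0.107 and 0.0509).

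The medium Siglec-F eosinophils of marrow (EoM BM, 3 arrays of the same run) give the level of some of these genes in another marrow sort. Prg3 averaged 13.93 and Epx 12.94 there, and Kit 8.82, Il17rb 8.81 and Cdk1 9.66, closer to EoH BM than to EoH PB in each. Ccl24 averaged 5.08, Car4 5.28, Ltc4s 6.47 and Retnla 8.35 in EoM BM, all below their EoH BM means. These are levels set side by side, without a test.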

How the data were processed

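RNA from sorted cells was amplified and hybridized to MouseWG-6 beadchips of version 1.1 (16 arrays, the 7 EoH arrays among them) or version 2.0. The authors deposited the intensity of each probe with its detection p-value, not normalized, and log2 values that normexp background correction followed by quantile normalization had given, over 24159 probes on both versions. The scanner software is not given in the sources used here.

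From the deposited intensity, background was corrected per version with nec of limma (version 3.58.1, R 4.3.3; offset 16, negative controls inferred from detection p), and log2 values of all 32 arrays were quantile normalized. These differed from the deposited log2 values by at most 0.16. A linear model with 9 groups and beadchip version was fitted with lmFit and eBayes (22 residual degrees of freedom), and p-values for EoH PB minus EoH BM were adjusted by the Benjamini-Hochberg method across the 24159 probes, with calls made under 0.05. Platform annotation gave 1 gene for 21157 probes, several for 147 and none for 2855. A gene was read from its probe with the highest mean over the 7 arrays, which left 15187 genes, of which 15169 were matched to RefSeq. Array number limits the precision, with 3 and 4 arrays. Slides were not given. Deposited sample names end in a for EoH PB replicate 1 and all EoH BM arrays and in b for EoH PB replicates 2 and 3, a letter whose meaning is not given in the sources used here and which cannot be told apart from tissue for those 2 arrays. The steps were tested on simulated data.

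Named were the 10 largest rises and falls without overlap between the groups, leaving out predicted genes, up to 4 called members of largest difference in each of 47 lists, the sort markers, Il5 and Cd2, and members that define a role. Other called genes were chosen after their values were seen. The contrast, the members and the lists were chosen with earlier results of these data known. In all 15 motifs were searched, of which 9 are given. Promoter windows were read from RefSeq sequences of GRCm38.p6, which had 1 or more windows for 12161 measured genes.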

Additional observations from a re-analysis of the deposited data

Results flagged for a closer look

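Among the 124 named genes, 10 had 1 EoH BM array far from the other 3, where the gap to the nearest array over the whole range passed Dixon's critical value for 4 arrays. Chance flags about 1 in 20 such groups, and the 3 EoH PB arrays are too few for this rule. The far array was EoH BM replicate 3 in 8 of the 10 and replicate 2 in the other 2.

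Replicate 3 was the high array at Batf3, at 9.69, against 8.27 to 8.44 in the others (ratio 0.882). It was the low array at C1qa with 6.56, against 7.33 to 7.39 (ratio 0.922), at Casp1 with 10.85, against 11.15 in all others (ratio 0.993), at Cd177 with 6.12, against 8.67 to 9.18 (ratio 0.834), and at Gbp3 with 7.00, against 7.43 to 7.47 (ratio 0.918). It also was low at Orm1, an acute phase protein, with 6.19, against 7.97 to 8.33 (ratio 0.831), at Prtn3 with 9.98, against 10.91 to 10.96 (ratio 0.954), and at Scd1 with 6.15, against 8.07 to 8.32 (ratio 0.885). Replicate 2 was high at Ctsk (cathepsin K) with 5.42, against 4.71 to 4.79 (ratio 0.892), and at Lyz1 with 6.54, against 4.84 to 4.99 (ratio 0.908).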

How the results depend on the processing

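The counts of probes, 770 higher and 638 lower, moved by over 1.5 times where fewer arrays set the spread, to 262 and 180 with the 7 EoH arrays alone, 244 and 148 with quantile normalization over those arrays, and 393 and 260 with the 10 eosinophil arrays, and with the 16 arrays of version 1.1 the lower count was 425. Scaling to a common median gave 343 and 424, so that 44.7% of calls were higher in place of 54.7%. The deposited values, no background correction, an offset of 50, a filter on detection, array weights and an intensity trend kept both counts within 1.5 times. Leaving out EoH PB replicates 2 and 3, chosen after seeing the data because their deposited names end in b, gave 608 and 464, with the lone EoH PB array assumed to vary like the other groups. Leaving out 1 array gave 588 to 873 higher and 502 to 718 lower. Of 121 named genes that were called, 46 were called under every alternative other than the replicate block on the 7 arrays. Of the 124 named genes 63 lost the call with the 7 arrays alone, 43 with the 10 eosinophil arrays, 34 without EoH PB replicates 2 and 3 and 19 with median scaling. Reversed in sign were Il5ra, at 0.033 without EoH PB replicate 2 and 0.024 without EoH BM replicate 2, and Siglecf, at -0.094 without EoH PB replicate 2. Without EoH PB replicates 2 and 3 they stood at 0.41 and -0.63. With 1 array left out, Il5ra ranged between -0.42 and 0.033 and Siglecf between -0.094 and 0.61, the highest of which passed the threshold (without EoH PB replicate 1). The other probe of Tyms gave 0.71. Replicate numbers are shared across the groups, and deviations from the group means of like-numbered arrays correlated at -0.16, -0.09 and -0.13. Taken over all probes, many of them undetected, and so few arrays, these values cannot show whether like-numbered arrays share mice. With the replicate block 735 probes were higher and 624 lower, and 7 named genes lost the call. In the fit of the 7 arrays the replicate block left 3 higher and 0 lower in limma with 2 residual degrees of freedom, and 1179 and 786 at an unadjusted p under 0.05. The cause of these differences was not tested. Dim probes bound what can be read, as 49 called genes were detected on no EoH array.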
